A study of Mus musculus with 4 samples.

Results

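The S100 calcium-binding proteins are small proteins with a pair of EF-hand motifs, the loops that hold calcium. Most act as dimers that bind partner proteins inside the cell, and some are released and act as alarm signals on receptors such as Tlr4 and Ager. In skin they are known from the cornifying epidermis, where most of their genes lie in one cluster beside the genes of the cornified envelope, and from hair and inflamed epithelium. Targets on the arrays whose annotated gene name was S100a3, S100a4, S100a6, S100a8, S100a9, S100a10, S100a11, S100a13, S100a14 or S100a16 were taken, which gave 10 genes out of 24171 gene symbols.

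Back skin of male BALB/c mice aged 8 weeks was treated 2 times a day over 5 days, and its RNA was read on NimbleGen arrays with 1-colour Cy3 labelling. The ATRA group received a cream with 0.1% all-trans retinoic acid, the acid form of vitamin A that acts through nuclear receptors. The ATRA+NIC group received that cream together with a nicotinamide cream, the NIC group received the nicotinamide cream alone (nicotinamide is a form of vitamin B3), and the Control group received an oil/water cream. All groups share sex, strain and age, no gene was altered, and pooling of mice for an array is not stated. The labels give no concentration of nicotinamide. With 1 array per group there was no replicate error for any difference, and precision was limited by the array number.

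Values are intensities normalised by the authors with RMA, and differences are on the log2 scale, where 1 is 2-fold. ATRA over Control stands for the log2 value on ATRA less that on Control, and the other comparisons are named in the same way. Random control probes read at most 36.3 on any of the 4 arrays, and all 10 S100 genes read at least 15.8 times the random probes of the same array. For comparison, 14552 symbols at or above an array's median on at least 1 array were kept, among them all 10 S100 genes. The median difference over these symbols was 0.056 in ATRA over Control and -0.0050 in ATRA+NIC over NIC. The keratinocyte genes Krt5, Krt14, Krt1, Krt10 and Lor read between 20586 and 44983. The series title names epidermis, yet Col1a1, a collagen gene of dermal fibroblasts, read between 28780 and 32430. Of the cell type markers measured, bright or dim, 8 of 8 hair and 2 of 5 melanocyte genes were at least 2-fold lower in both ATRA over Control and ATRA+NIC over NIC, and 3 of 11 neutrophil and 1 of 7 fibroblast genes were at least 2-fold higher. The counts were 0 of 5 keratinocyte, 0 of 9 macrophage and dendritic cell, 0 of 4 Schwann cell, 0 of 4 muscle, 0 of 4 adipocyte and 0 of 8 retinoid target genes in either direction.

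In skin treated with ATRA, 3 of the 10 S100 genes differed by at least 2-fold and the other 7 did not. S100a8 and S100a9 were higher and S100a3 was lower, both in ATRA over Control and in ATRA+NIC over NIC, comparisons with no array in common. Over all kept symbols, 9.59% were at least 2-fold apart in ATRA over Control (4.11% higher and 5.48% lower) and 14.5% in ATRA+NIC over NIC (6.92% higher and 7.59% lower). In both comparisons at once 0.832% of kept symbols were at least 2-fold higher and 1.89% at least 2-fold lower. Bright symbols were less often that far apart: of the 4580 at least as bright as S100a13, the dimmest of the 10, 4.43% and 7.71% were. Among these bright symbols 0.459% were 2-fold or more higher in both comparisons and 2.6% were 2-fold or more lower in both. The median over the 10 genes was 0.11 in ATRA over Control and 0.12 in ATRA+NIC over NIC. The 10 were chosen with results of these arrays known, so these counts describe them and test nothing.

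**Figure D1:**
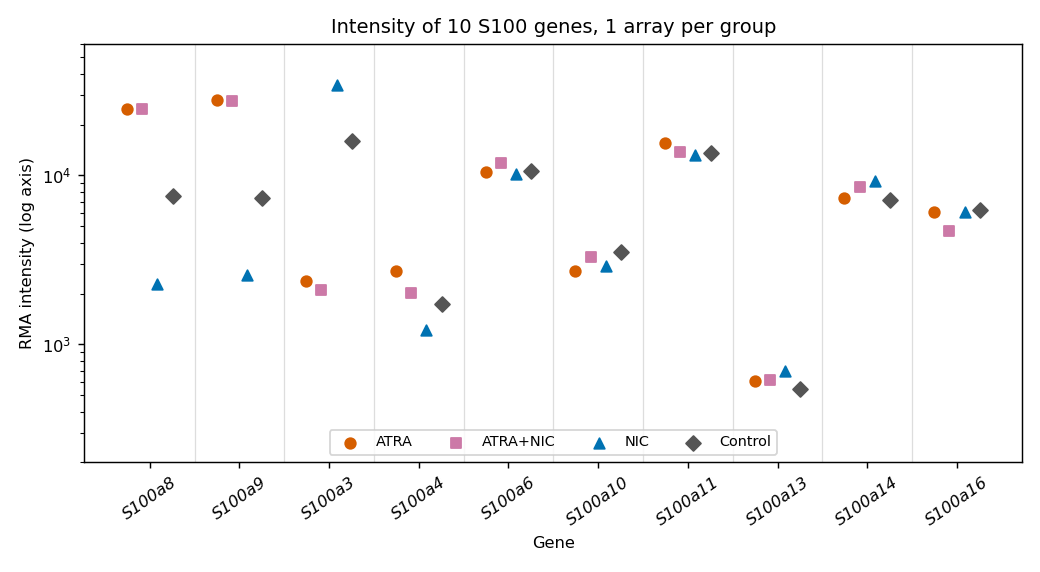
RMA intensity (log axis) of the 10 S100 genes, 1 point per array, with ATRA, ATRA+NIC, NIC and Control from left to right within each gene. S100a8 and S100a9 sit between 24707 and 28062 on ATRA and ATRA+NIC and are lowest on NIC, S100a3 is highest on NIC, and the other 7 genes are less than 2-fold apart in each of the 5 comparisons. Heights of different genes are read by different probes and are not comparable.

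S100a8 and S100a9 encode the subunits of calprotectin, a calcium- and zinc-binding complex that neutrophils carry and that stressed keratinocytes make. Their promoters are shown because both genes moved together. Each window runs from 250 bases before to 50 after the annotated start, 5′ to 3′ along the gene, from RefSeq on GRCm38.p6. S100a8 lies on the plus strand (chr3:90668821-90669120) and S100a9 on the minus strand (chr3:90695672-90695971). Capitals mark a TATA motif (the letters TATAAA) and a loose C/EBP motif (the letters TTNNGNAA), searched on both strands, and no marked matches overlap.
S100a8: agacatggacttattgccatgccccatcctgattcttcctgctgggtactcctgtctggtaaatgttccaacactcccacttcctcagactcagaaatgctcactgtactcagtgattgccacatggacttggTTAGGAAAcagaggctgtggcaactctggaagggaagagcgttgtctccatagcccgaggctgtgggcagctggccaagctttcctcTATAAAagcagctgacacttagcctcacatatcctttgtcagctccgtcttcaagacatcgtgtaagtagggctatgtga
S100a9: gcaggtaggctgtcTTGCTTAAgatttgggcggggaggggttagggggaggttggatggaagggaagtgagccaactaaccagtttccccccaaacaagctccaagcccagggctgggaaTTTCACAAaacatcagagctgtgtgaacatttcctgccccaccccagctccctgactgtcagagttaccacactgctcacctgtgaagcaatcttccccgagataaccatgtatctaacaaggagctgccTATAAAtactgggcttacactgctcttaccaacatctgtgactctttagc
The S100a8 window holds a TATAAA 30 bases before the start and a C/EBP match 117 bases before it. The S100a9 window holds C/EBP matches 236 and 130 bases before the start, and its TATAAA begins at position 1, the annotated start itself. All these distances are from the annotated start, and where transcription began in this skin was not tested. Neither window holds TGANTCA, an AP-1 motif, or AGGTCA, a retinoid receptor half-site. Of 32851 promoter windows of this length, 13.6% hold TATAAA, 40.7% the C/EBP motif, 7.81% the AP-1 motif and 16.3% the half-site. A match is a run of letters and not evidence that a factor was bound.

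S100a8 (chromosome 3, 90473006 to 90473952 on MM9, the build of the array files) read 24863 on ATRA against 7522 on Control, and 24707 on ATRA+NIC against 2280.1 on NIC. It was 3.31-fold higher in ATRA than in Control and 10.8-fold higher in ATRA+NIC than in NIC. S100a9 (chromosome 3, 90496554 to 90499613) read 28062 on ATRA against 7360.5 on Control, and 27479 on ATRA+NIC against 2583 on NIC. It was 3.81-fold and 10.6-fold higher in the same comparisons. Both ATRA arrays were thus alike for this pair, and NIC itself read below Control. Both genes kept nearly the same ratio on every array: log2 S100a8 minus log2 S100a9 was -0.17 on ATRA, -0.15 on ATRA+NIC, -0.18 on NIC and 0.031 on Control. On the ATRA array 129 targets were brighter than S100a9 and 166 were brighter than S100a8, and the maximum was 51026. Whether the range of the probes limited these bright values was not tested. Skin was read as a tissue of mixed cells, so that more cells of a type and more RNA per cell cannot be told apart, here and for every result.

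Some of the genes known from wounded or inflamed epidermis were higher on the ATRA arrays. Of 17 measured alarmins and stress keratins, 6 were at least 2-fold higher in ATRA over Control and 13 in ATRA+NIC over NIC. The same 5 passed in both, 0 were 2-fold lower in either, and the medians were 0.79 and 1.55. At least 2-fold higher were 4.11% and 6.92% of all kept symbols in the same comparisons. Not all of the 17 were higher: Krt17, a keratin of hair follicles and wounds, differed by -0.17 and -0.42, and Saa1 by -0.039 and 2.71. Krt6a, a wound keratin, read 27575 on ATRA against 11503 on Control and 23646 on ATRA+NIC against 6384 on NIC. Il33, an alarm cytokine of epithelia, read 3027 on ATRA against 661.5 on Control and 3500.1 on ATRA+NIC against 468.0 on NIC. Slpi, a secreted protease inhibitor, read 17965 on ATRA against 5127 on Control and 16576 on ATRA+NIC against 3682 on NIC. Defb3, a beta-defensin, had 4433 on ATRA against 1030.5 on Control, and 4959 on ATRA+NIC against 116 on NIC. Like S100a8 and S100a9, Il33, Slpi and Defb3 read about as high on ATRA+NIC as on ATRA, and the median of ATRA+NIC over ATRA over the 17 was -0.030. Not all stayed level there: 1 of the 17 was at least 2-fold higher (Saa1, by 1.49) and 1 lower (Camp, by -3.15). Of all kept symbols 9.26% were that far apart in either direction.

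Neutrophil genes moved with the pair in part. Of 11 measured markers, S100a8 and S100a9 not among them and Camp shared with the alarmin list, 7 were at least 2-fold higher in ATRA over Control and 4 in ATRA+NIC over NIC, with medians of 1.81 and 0.84. These counts use no filter on dim genes, without which 10.0% and 14% of all 24171 symbols were 2-fold or more apart in either direction. The summed intensity of the 11 was 2281 on ATRA, 1204.5 on ATRA+NIC, 891 on NIC and 944 on Control, and 1, 5, 6 and 6 of them read under 2 times the random probes on the same arrays. Ly6g, a defining surface marker of mouse neutrophils, read 76.6, 68.0, 70.5 and 47.1 in that order. Csf3r, the G-CSF receptor, read 135 on ATRA against 48.9 on Control and 122 on ATRA+NIC against 49.8 on NIC. Mmp9, a protease of neutrophil granules, read 356 on ATRA against 95.3 on Control and 219 on ATRA+NIC against 88.5 on NIC. Others of the 11 went the other way from the pair. In ATRA+NIC over NIC Camp differed by -0.67, Mmp8 by -0.56, Cxcr2 by -0.45 and Ly6g by -0.051. In ATRA over Control Mpo differed by -0.82. In ATRA+NIC over ATRA the 11 had a median of -0.69 with 3 at least 2-fold lower, against 10.6% of all unfiltered symbols apart in either direction, while S100a8 differed by -0.0091 and S100a9 by -0.030. Of those 3 genes, Camp and Mmp8 read under 2 times the random probes on ATRA+NIC. How much of the calprotectin signal came from neutrophils was not tested.

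Symbols whose pattern was nearest were found by the Euclidean distance of log2 profiles over the 4 arrays, each centred on its mean, among 5788 other named symbols at or above percentile 75 on at least 1 array. S100a8 was nearest to S100a9 (distance 0.17), followed by Sprr2j-ps (0.20), Ankrd1 (0.40), Lce3a (0.46) and Lce3f (0.46). S100a9 was nearest to Sprr2j-ps (0.096), then S100a8 (0.17), Lce3f (0.32), Lpo (0.40) and Lce3a (0.48). Sprr2j-ps is a pseudogene of the small proline-rich family, and its probes may also read its near-identical relatives. Lce3a and Lce3f encode late cornified envelope proteins of stressed epidermis. Lce3f read 1267 on ATRA against 259 on Control, and 1246 on ATRA+NIC against 98.8 on NIC. Ankrd1 was dim on NIC at 54.4, less than 2 times the random probes.

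**Figure D2:**
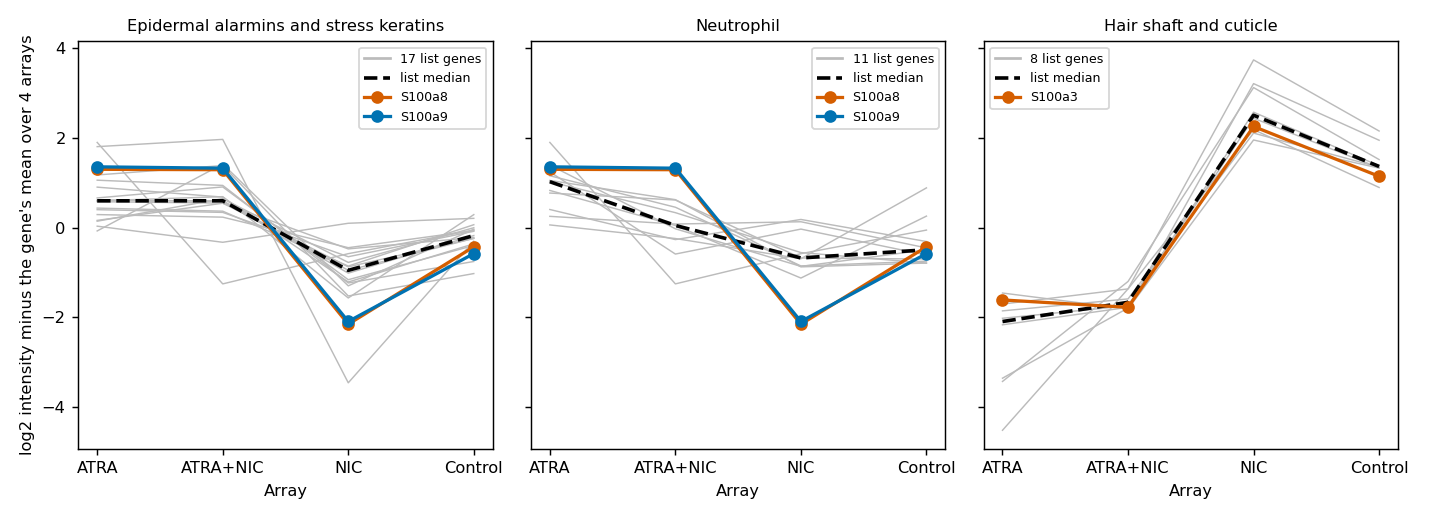
Each gene's log2 intensity minus its own mean over the 4 arrays (vertical axis) on ATRA, ATRA+NIC, NIC and Control (horizontal axis). Thin grey lines are all measured list genes (17 alarmin and stress keratin, 11 neutrophil, 8 hair genes), dashed black lines are list medians, and coloured lines are S100a8 and S100a9 or S100a3. The calprotectin lines stay level between ATRA and ATRA+NIC. S100a3 is low on both ATRA arrays, as the hair genes are. In ATRA+NIC over ATRA it differs by -0.16, while the 8 hair genes have a median of 0.36.

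Receptors of released S100 proteins were measured with 9 genes, of which 0 were at least 2-fold apart in ATRA over Control and 1, the dim Cd69, was in ATRA+NIC over NIC. Over all unfiltered symbols 10.0% and 14% were that far apart, so the counts do not set the receptors apart. Ager, the receptor RAGE, read 93.2 on ATRA against 120 on Control and 118 on ATRA+NIC against 113 on NIC. Tlr4, the toll-like receptor that calprotectin engages, read 110.1 on ATRA against 194 on Control and 199.6 on ATRA+NIC against 129.5 on NIC, so the difference was -0.82 without nicotinamide and 0.62 with it. Its partner Ly96 read 190.8 on ATRA against 181 on Control and 58.8 on ATRA+NIC against 100.1 on NIC. Bsg, a receptor of S100a9 on epithelial and tumour cells, read 10787 on ATRA against 7859 on Control and 10108 on ATRA+NIC against 10520.1 on NIC.

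S100a3 (chromosome 3, 90404139 to 90406465) encodes a cysteine-rich protein of the hair cuticle, the outer cell layer of the hair fibre. It read 2360.3 on ATRA against 15889 on Control, and 2107 on ATRA+NIC against 34272 on NIC. That made it 6.73-fold lower in ATRA than in Control and 16.3-fold lower in ATRA+NIC than in NIC, log2 differences of -2.75 and -4.02. Both ATRA arrays read below both arrays without ATRA. Even so S100a3 stayed at 58.1 times the random probes on its lowest array. Of 8 measured hair shaft and cuticle genes, Padi3 included, 8 were at least 2-fold lower in both ATRA comparisons (medians -3.44 and -4.24). By comparison, 1.89% of all kept symbols were at least 2-fold lower in both. The summed intensity of the 8 was 1847 on ATRA, 4269 on ATRA+NIC, 99265 on NIC and 38596 on Control. The hair keratin genes Krt33a, Krt34, Krt81 and Krt33b differed by -5.30, -6.66, -4.94 and -3.54 in ATRA over Control and by -4.99, -5.10, -4.32 and -4.34 in ATRA+NIC over NIC. Melanocyte genes, which mark the pigment cells of hair and skin, were also low on the ATRA arrays, with medians of -0.97 and -2.75. Of the 5 genes, 2 were at least 2-fold lower in ATRA over Control and 5 in ATRA+NIC over NIC. The shares over all kept symbols were 5.48% and 7.59%. Mlana, a melanosome protein gene, read 308.5 on ATRA against 977 on Control and 253 on ATRA+NIC against 2648 on NIC. Tyr, the tyrosinase of melanin synthesis, read 94.2 on ATRA against 253 on Control and 93.9 on ATRA+NIC against 633 on NIC. The part of hair-forming cells and melanocytes in the S100a3 values was not tested.

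Padi3 encodes the peptidylarginine deiminase that converts arginines of S100a3 to citrulline in the hair cuticle. It read 87.9 on ATRA against 806 on Control, and 106 on ATRA+NIC against 1365 on NIC. Padi1, a relative that also acts in epidermis, read 62.4 on ATRA (less than 2 times its random probes) against 353.4 on Control and 133 on ATRA+NIC against 352.9 on NIC. Enzyme and substrate were thus lower together, with Padi3 among the nearest profiles of S100a3. The nearest were Krt40 (distance 0.28), Krtap26-1 (0.32), Krt35 (0.39), Vsig8 (0.39) and Padi3 (0.40), of which the keratins and the keratin-associated protein belong to the hair fibre. Krt35, a hair keratin, read 468 on ATRA against 3216 on Control and 366 on ATRA+NIC against 4962 on NIC. Krt82, a keratin of the hair cuticle, read 197 on ATRA against 2009 on Control and 239 on ATRA+NIC against 4316 on NIC. S100a3 has 4 promoter windows in RefSeq, and these data do not show which was used, so none is printed.

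S100a4, a protein of fibroblasts and leukocytes that binds non-muscle myosin, was higher on both ATRA arrays by less than 2-fold. It read 2730.0 on ATRA against 1723 on Control, and 2026 on ATRA+NIC against 1224 on NIC, 1.58-fold and 1.66-fold (chromosome 3, 90408931 to 90409967). The log2 differences of 0.66 and 0.73 were 0.063 apart. Its myosin partner gene Myh9 differed by -0.20 and -0.66. The nearest profiles were those of Myo1f (distance 0.10), Ada (0.12), Pecam1 (0.12), Cnfn (0.13) and F13a1 (0.13). Myo1f is a leukocyte myosin, Pecam1 a surface protein of endothelium and leukocytes, F13a1 a clotting factor subunit of macrophages and Cnfn a protein of the cornified envelope. Pecam1 read 1065 on ATRA against 709 on Control and 773 on ATRA+NIC against 521 on NIC.

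Macrophage and dendritic cell genes had medians of 0.27 and 0.43 in ATRA over Control and ATRA+NIC over NIC over 9 measured genes. Their summed intensity was 26522 on ATRA, 18639 on ATRA+NIC, 13729 on NIC and 20699.9 on Control. Fibroblast genes had medians of 0.14 and 0.29 over 7 genes, and sums of 56390.4, 52352, 50036 and 50778 on the same arrays. Lum, a proteoglycan of dermal fibroblasts, read 5701 on ATRA against 2721 on Control and 5334 on ATRA+NIC against 2572 on NIC. The part of these cells in the S100a4 values was not tested.

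S100a6, S100a10, S100a11, S100a13, S100a14 and S100a16 were under 2-fold apart in all 5 comparisons. S100a6, or calcyclin, is read by 2 targets that disagreed in sign in ATRA over Control. One read 12665 on ATRA against 9274 on Control, a difference of 0.45, and the other 8722 on ATRA against 12244 on Control, a difference of -0.49. Averaged they gave -0.020, and in ATRA+NIC over NIC the targets differed by 0.33 and 0.11. Cacybp, the calcyclin-binding protein gene, differed by 0.71 and -0.079. The gap of 0.94 between the targets of S100a6 shows how far probes of 1 gene can part between the same arrays.

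S100a10, which binds annexin A2 and has lost calcium binding, read 2725 on ATRA against 3507 on Control and 3291 on ATRA+NIC against 2899.9 on NIC. Anxa2, its partner, differed by -0.19 in ATRA over Control and by -0.099 in ATRA+NIC over NIC. S100a11, a partner of annexin A1 found in cornified envelopes, read 15641 on ATRA against 13592 on Control and 13740.4 on ATRA+NIC against 13191 on NIC. Its 2 targets differed by 0.25 and 0.16 in ATRA over Control and by 0.013 and 0.11 in ATRA+NIC over NIC. A pseudogene copy, S100a11-ps, was read by a target of its own at 111 or below on all arrays. Anxa1 differed by -0.18 and -0.26.

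S100a13, which takes part in the release of Fgf1 and Il1a from cells, read 606 on ATRA against 541 on Control and 614 on ATRA+NIC against 694 on NIC. Fgf1, a fibroblast growth factor, differed by 0.83 and 0.00080 and Il1a by -0.065 and 0.44. S100a14 read 7397 on ATRA against 7162 on Control and 8600.2 on ATRA+NIC against 9325 on NIC. S100a16 was read by 2 targets, averaging 6054 on ATRA against 6285 on Control and 4708 on ATRA+NIC against 6087 on NIC, and the targets differed by -0.63 and -0.11 in ATRA+NIC over NIC. S100a14 and S100a16 are epithelial members of the family. Of 16 measured genes for annexins and other binding partners, 2 were 2-fold or more lower in both ATRA comparisons, Padi3 and Padi1. The number higher was 0, and the medians were -0.083 and -0.24. By comparison, 1.89% of all kept symbols were 2-fold or more lower in both and 0.832% higher in both.

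**Figure D3:**
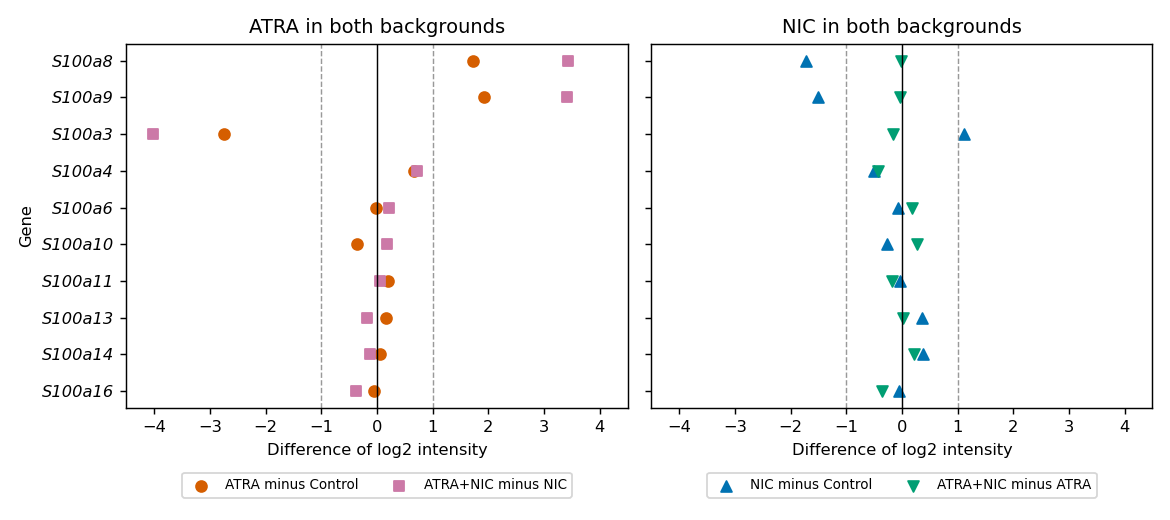
Differences of log2 intensity (horizontal axis) for the 10 S100 genes (vertical axis), with the ATRA comparisons (over Control, and with NIC over NIC alone) on the left and the NIC comparisons (over Control, and with ATRA over ATRA alone) on the right. Dashed lines mark 2-fold. S100a8, S100a9 and S100a3 lie beyond the lines in both ATRA comparisons and in NIC over Control, and all 10 genes lie within them in ATRA+NIC over ATRA.

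The nicotinamide cream alone was set against the Control cream, and ATRA+NIC against ATRA. The same 3 genes were at least 2-fold apart in NIC over Control, each opposite to its direction under ATRA, and these differences share the Control array with ATRA over Control. S100a8 was 3.30-fold lower and S100a9 2.85-fold lower on NIC than on Control, log2 differences of -1.72 and -1.51. S100a3 was 2.16-fold higher, a difference of 1.11. In ATRA+NIC over ATRA 0 of the 10 were 2-fold apart, and the differences ran between -0.43 for S100a4 and 0.27 for S100a10. Over all kept symbols 10.7% were at least 2-fold apart in NIC over Control (5.33% higher and 5.36% lower) and 9.26% in ATRA+NIC over ATRA, and over the bright symbols 4.26% and 1.94%.

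For the other 7 of the 10 genes the differences with nicotinamide were under 2-fold. S100a4 was lower in both, by -0.49 and -0.43. S100a14 was higher in both, by 0.38 and 0.22, and S100a13 by 0.36 and 0.019. The alarmins and stress keratins had medians of -0.71 in NIC over Control, with 3 of 17 at least 2-fold lower, and the neutrophil genes had a median of -0.085 there, with 2 of 11, while 11.3% of all unfiltered symbols were apart in either direction. The 8 hair genes had a median of 1.23 in NIC over Control, and 6 were at least 2-fold higher. Melanocyte genes moved with them, as 5 of 5 were at least 2-fold higher there, with a median of 1.32. The share of all kept symbols at least 2-fold higher there was 5.33%. In ATRA+NIC over ATRA the hair median was 0.36 with 3 of 8 at least 2-fold higher, while S100a3 differed by -0.16. The share of all kept symbols at least 2-fold apart in either direction was 9.26% in ATRA+NIC over ATRA.

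Skin given both agents was also compared with the Control cream. S100a8 was 3.28-fold higher and S100a9 3.73-fold higher on ATRA+NIC than on Control, and S100a3 was 7.54-fold lower. The other 7 genes differed by between -0.42 for S100a16 and 0.26 for S100a14. Over all kept symbols 12.8% were at least 2-fold apart in ATRA+NIC over Control (5.81% higher and 7.0% lower), and over the bright symbols 5.52%.

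An additive limma fit with terms for ATRA and NIC was run on all kept symbols over the 4 arrays. It has 1 residual degree of freedom, which comes from the interaction, so that its p-values hold only where both agents act additively. With Benjamini-Hochberg adjustment over 14552 symbols, 0.618% were called for the ATRA term (0.0137% higher and 0.605% lower) and 0 of the 10 S100 genes. For S100a3 the ATRA term was -3.39 (SE 0.40) with a limma adjusted p of 0.0511, for S100a9 2.67 (SE 0.44) with a limma adjusted p of 0.146 and for S100a8 2.58 (SE 0.48) with a limma adjusted p of 0.205. At an unadjusted p under 0.05 these 3 of the 10 passed for ATRA, against 8.16% of all symbols. When fitted only to symbols reaching percentile 75 of an array all 3 had an adjusted p under 0.05, at 0.00424, 0.0181 and 0.0312 in the same order. An intensity trend also brought all 3 below 0.05, and over all alternatives their limma adjusted p reached 0.109, 0.263 and 0.335 in that order. For these genes the pair of ATRA differences was unequal, by -1.27 for S100a3, 1.48 for S100a9 and 1.71 for S100a8, which the fit counts as error. For NIC 0 of 14552 symbols (0.0%) were called by limma, with 5.27% at an unadjusted p under 0.05, and 0 of the 10 passed at either threshold, with a smallest adjusted p of 0.981.

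Along chromosome 3 the arrays read 15 S100 genes, the 10 above and 5 others, and only these were placed in order. Genes of other families that may lie between them were not looked at. Among the S100 genes, S100a3 comes between S100a2 and S100a4, and the S100a8 and S100a9 pair between S100a7a and S100a7l2. S100a9 ends at 90499613, and S100a7l2 starts only at 90892058. These flanking S100 genes were under 2-fold apart in both ATRA comparisons. S100a2 came close to 2-fold lower, at -0.93 in ATRA+NIC over NIC. S100a7a, an antimicrobial relative of human psoriasin, read 234 on ATRA against 225 on Control and 221 on ATRA+NIC against 347 on NIC, differences of 0.061 and -0.65. S100a7l2 read 110.4 on ATRA against 113 on Control and 86.4 on ATRA+NIC against 60.5 on NIC. S100a2, added to the list after the data were seen, read 78.5 on ATRA against 67.6 on Control and 75.1 on ATRA+NIC against 143 on NIC. Both S100a2 and S100a7l2 were dim, each under 2 times the random probes on 1 array.

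Of the remaining genes of the cluster, S100a5, next to S100a4, read 131 on ATRA against 69.5 on Control and 52.5 on ATRA+NIC against 23.9 on NIC, and 2 of its 4 values were under 2 times the random probes. S100a1, known from heart muscle, read 417 on ATRA against 228 on Control and 426 on ATRA+NIC against 648 on NIC, so that it differed by 0.87 without nicotinamide and by -0.61 with it. S100b, the S100 gene of Schwann cells and melanocytes, and S100g, an intestinal calcium carrier, lie on other chromosomes and read 78.6 or less on all arrays, below the filter.

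Genes whose products carry an S100 domain fused to a long repeat lie in the same region. Tchh, trichohyalin of the inner root sheath, read 6524 on ATRA against 31273 on Control and 11162 on ATRA+NIC against 46098 on NIC. Flg, profilaggrin of the granular layer, read 13285 on ATRA against 18945 on Control and 15062 on ATRA+NIC against 16339 on NIC. Hrnr, hornerin of the cornified layer, read 2639 on ATRA against 2712 on Control and 3446 on ATRA+NIC against 2439.6 on NIC. The hair gene of the 3 was thus 2-fold or more lower in both ATRA comparisons, as S100a3 was, and the epidermal ones were not.

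**Figure D4:**
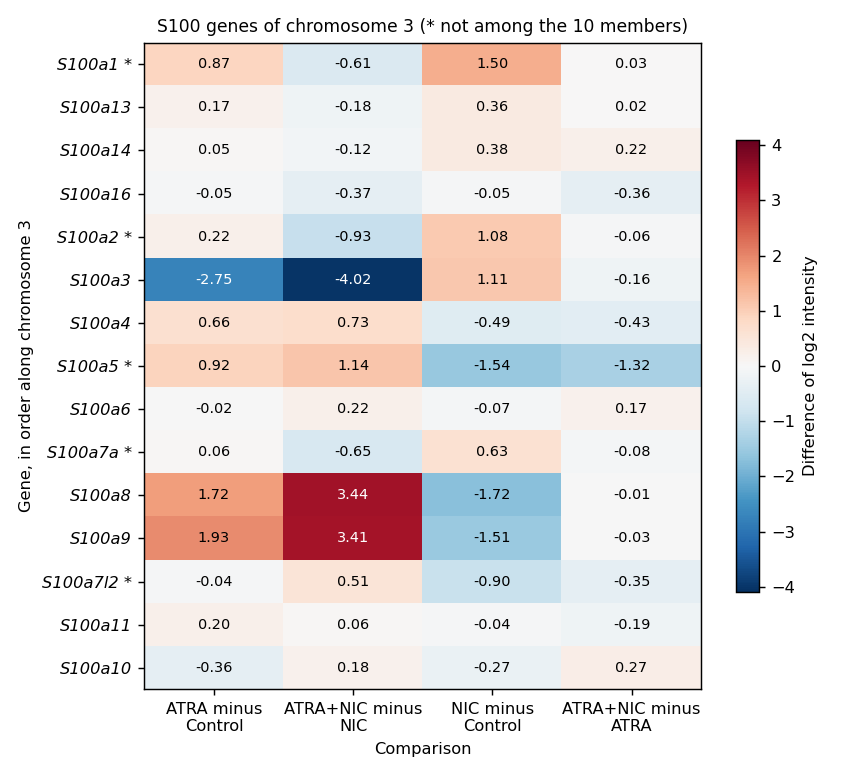
Differences of log2 intensity (colour and number) for 15 S100 genes in their order along chromosome 3 (rows, not to scale), in 4 comparisons (columns). S100a3 is low and S100a8 and S100a9 are high in both ATRA columns, with other S100 genes such as S100a4, S100a6 and S100a7a under 2-fold. Genes with an asterisk are not among the 10.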

How the data were processed

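RNA of mouse skin was read on 4 arrays, 1 for each of ATRA, ATRA+NIC, NIC and Control. Each target has a linear RMA intensity deposited by the authors, per the file names, with 3 probes for 44155 of 44170 targets. For background, normalization settings and software the sources used here give nothing. A further deposited table holds the same intensities for 24323 targets (largest relative difference 9.0e-07) and served as an alternative. A workbook was not used, since its 4 value columns carry no group names.

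Intensities were put on the log2 scale (Python 3.11.15, pandas 2.3.3), targets were named through gene IDs for 39057 targets and by the array's symbol otherwise, and targets of a symbol were averaged. Differences between arrays have no test. The limma fit (limma 3.58.1, R 4.3.3, lmFit and eBayes) was tried on simulated data with additive effects only. That trial cannot check the fit where both agents do not act additively. The 10 genes and the gene lists (other S100 genes, S100-fused genes, binding partners, receptors, alarmins and stress keratins, retinoid targets and cell type markers) were chosen with earlier results of these data known. Named genes were all 10 members, genes of the lists on other S100 genes, partners and receptors where a result turns on them, of each other list up to 4 genes at least 2-fold apart in the same direction in both differences of an agent, by the smaller of both, and the 5 nearest profiles of S100a8, S100a9, S100a3 and the other member with the widest range. Further genes named beside them (Krt17, Saa1, Camp, Mmp8, Cxcr2, Mpo, Krt82, Ly6g, Flg, Hrnr, S100a2, S100a11-ps and the genes of the tissue check) were chosen after their values were seen. Promoter windows were found for 8 of the 10 genes in RefSeq.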

Additional observations from a re-analysis of the deposited data

Results flagged for a closer look

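The effect of an agent ran in opposite directions in both backgrounds for several S100 genes, each read on 1 array per group, and these differences of direction were not tested. S100a3 differed by 1.11 in NIC minus Control and by -0.16 in ATRA+NIC minus ATRA. For ATRA, read in ATRA minus Control and then in ATRA+NIC minus NIC, S100a6 differed by -0.020 and 0.22, S100a10 by -0.36 and 0.18, S100a13 by 0.17 and -0.18 and S100a14 by 0.047 and -0.12. For nicotinamide, read in NIC minus Control and then in ATRA+NIC minus ATRA, S100a6 differed by -0.069 and 0.17 and S100a10 by -0.27 and 0.27. The opposite directions did not hold in every setting. S100a6 with ATRA read 0.45 and 0.33 with the brightest target and 0.012 and 0.23 after median centring. S100a14 with ATRA read -0.017 and -0.23 with cyclic loess. For nicotinamide the signs of S100a6 turned round with the brightest target, to 0.11 and -0.0042. Apart from the 1.11 of S100a3 in NIC minus Control, these values are smaller in size than the gap of 0.94 between the 2 targets of S100a6.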

How the results depend on the processing

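Each difference of the 10 genes was recomputed after median centring of the arrays, with cyclic loess, with the random probes subtracted, with 50 added before log2, with the brightest target and with the deposited value table. Of 300 values under these 6 alternatives 300 stayed within 1.5-fold of the reported one, 0 that were at least 2-fold changed sign, and 8 values of 6 smaller differences did, each 0.17 or less in size as reported (S100a6, S100a11 and S100a14), and the counts of genes at least 2-fold apart did not move. Calls of the limma fit depended on its settings. With the percentile 75 filter 2 of the 10 genes rose and 1 fell with ATRA, with an intensity trend 2 rose and 1 fell with ATRA and 1 fell with NIC, and with no filter on dim genes 1 fell with ATRA, against 0 as reported. The 1 that fell with NIC was S100a8, at a limma adjusted p of 0.0421, against 0.906 to 0.998 under the other alternatives. The cause was not tested. No replicate could be left out, since each group has 1 array. No paired analysis was possible because each group has 1 array with no replicate number in the labels. Signal limits dim genes such as S100a5, S100b and S100g, which read near the random probes on some arrays.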
